A study of Homo sapiens with 8 samples.

Results

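The 36 genes described here encode nucleolar proteins and factors of ribosome assembly: nucleolar phosphoproteins and chaperones, subunits of RNA polymerase I, proteins of the small nucleolar ribonucleoprotein particles (snoRNPs), and assembly factors of the small and large ribosomal subunits. They were chosen as a named list by function, with earlier results of these data known. Their probes were found through the RefSeq accession that the array gives for each probe. All 36 had a value, among 28850 genes tested. They were measured in LNCaP cells, an androgen-sensitive human prostate cancer line, transfected for 72 hours with 30 nM of an siRNA against the transcription factor GATA2 (siGATA2) or with a scrambled siRNA (siControl). Total RNA of 4 replicates per group was labelled with a single dye and hybridised to 8 Agilent arrays, to ask which genes change when GATA2 is silenced. The silencing was transient, and 1 cell line was used. Both groups were LNCaP cells carried in the same serum-supplemented medium and put through the same transfection, so that they differed, per the labels, in the siRNA alone. All values are log2 signals after quantile normalisation. A negative log2 fold change means a lower mean on the siGATA2 arrays.

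Ribosomes are built in the nucleolus, where RNA polymerase I transcribes the precursor of the ribosomal RNAs. Box C/D snoRNPs then methylate the precursor, box H/ACA snoRNPs convert chosen uridines to pseudouridine, and a long series of assembly factors folds and cuts the RNA while ribosomal proteins join it. The pathway is a major consumer of energy in growing cells, and the transcription factor MYC is well known to act on many of its genes.

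Before the results, some features of the arrays need stating. The probe for GATA2 itself was not lower on the arrays labelled siGATA2: it read 12.61, 12.54, 11.57 and 11.40 there and 11.74, 11.28, 11.10 and 11.29 on the arrays labelled siControl (log2 fold change 0.68, SE 0.312, limma adjusted p = 0.154). Each direction below therefore rests on the labels. MYC, whose product acts on many genes of the pathway, read 12.30, 12.26, 11.98 and 12.09 on the arrays labelled siGATA2 and 14.98, 14.98, 14.83 and 14.84 on the arrays labelled siControl. The groups lay far apart, 6.73-fold lower on the arrays labelled siGATA2 (log2 fold change -2.75, SE 0.111, limma adjusted p = 1.32e-05). The part of MYC in the results below was not tested. Array 1 labelled siControl stood apart from the other siControl arrays. Its spike-in controls read 11.13 on the log2 scale against 13.45 to 13.83 on the other 7 arrays. It was also the lowest siControl array for 30 of the 36 genes. Array 3 labelled siControl had the fewest probes well above background, 24438. There were 28560 on siControl array 1 and 34091 to 37033 on the remaining arrays. On siControl array 3 the processed signal also had the lowest correlation with the deposited values, 0.985. Of the luminal prostate markers examined, 7 are reported here, and KLK2, KLK3, TMPRSS2, FOLH1, HOXB13, KRT8 and KRT18 were each well above background on 8 of 8 arrays. KLK2 (log2 fold change -1.84, limma adjusted p = 0.00372), KLK3 (-1.63, limma adjusted p = 0.0321) and HOXB13 (-0.40, limma adjusted p = 0.0183) were lower on the arrays labelled siGATA2. KRT8 was higher there (0.56, limma adjusted p = 0.0283), and TMPRSS2, FOLH1 and KRT18 were not called. Of 8 markers of immune, fibroblast and endothelial cells that were tested, 4 were also well above background on all arrays, 3 were called and 0 were listed at 0. CD68 (log2 fold change 2.00, limma adjusted p = 0.000592) and PTPRC (0.87, limma adjusted p = 0.00138) were higher on the arrays labelled siGATA2, and VWF was lower (-0.96, limma adjusted p = 0.00155). The summed signal of the 8 markers ran from 11.25 to 11.31 on the log2 scale on the arrays labelled siGATA2 and from 11.15 to 11.37 on the arrays labelled siControl, and the part of these markers in the results was not tested.

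The promoters of these genes were searched for a known motif, the E-box, and the stretches that hold it are printed because the fold changes are later set beside it. The E-box CACGTG is a palindrome recognised by basic helix-loop-helix proteins such as the MYC-MAX and USF dimers. It was present in the promoter window, from 250 bases before to 50 bases after the annotated start, of 14 of the 30 genes (46.7%) that had a RefSeq entry (assembly GRCh38.p14). BOP1, PUS1, NOP58, NOLC1, RRS1 and RRP12 had no entry. Each stretch is written 5′ to 3′ on the strand of the gene, with the E-box in capitals, in order of the log2 fold change of the gene.
FBL (chr19:39846358-39846383, minus strand): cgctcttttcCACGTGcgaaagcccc
NOP14 (chr4:2963376-2963401, minus strand): cgcggcccggCACGTGtcttagggta
WDR43 (chr2:28894660-28894685, plus strand): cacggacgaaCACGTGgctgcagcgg
RRP9 (chr3:51941894-51941919, minus strand): gttcagctgcCACGTGagttctgcgg
UTP20 (chr12:101280085-101280110, plus strand): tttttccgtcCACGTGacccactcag
BYSL (chr6:41921517-41921542, plus strand): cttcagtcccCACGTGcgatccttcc
DDX21 (chr10:68956606-68956631, plus strand): ccgggtgtccCACGTGgtccccggcg
PES1 (chr22:30591882-30591907, minus strand): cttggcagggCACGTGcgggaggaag
NOP2 (chr12:6568242-6568266, minus strand): gtccggattgCACGTGgagggccgc
GAR1 (chr4:109815783-109815808, plus strand): gccagaggggCACGTGgcgccggtga
NOL6 (chr9:33473896-33473921, minus strand): catttccgccCACGTGggaagctatg
MRTO4 (chr1:19251809-19251834, plus strand): tcttccgccgCACGTGgattcagcgc
PNO1 (chr2:68157887-68157912, plus strand): tgcagctgcgCACGTGtttcagccgg
GNL3 (chr3:52686028-52686053, plus strand): cttcagttcaCACGTGgcgccagcgg
In these 14 genes the first base of the E-box lay between 31 bases before and 35 bases after the start. The same letters were found in 7.26% of all 35116 promoter windows of this length, in 11.3% of the 13920 tested genes with an entry, and in 26.0% of 127 other ribosome biogenesis genes with an entry. The letters AGATAA, a form of the GATA motif, were searched on both strands and were present for 1 of the 30 genes, GAR1, against 9.45% of the tested genes with an entry. A match is a description of the letters in the window and not a site of binding.

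**Figure D1:**
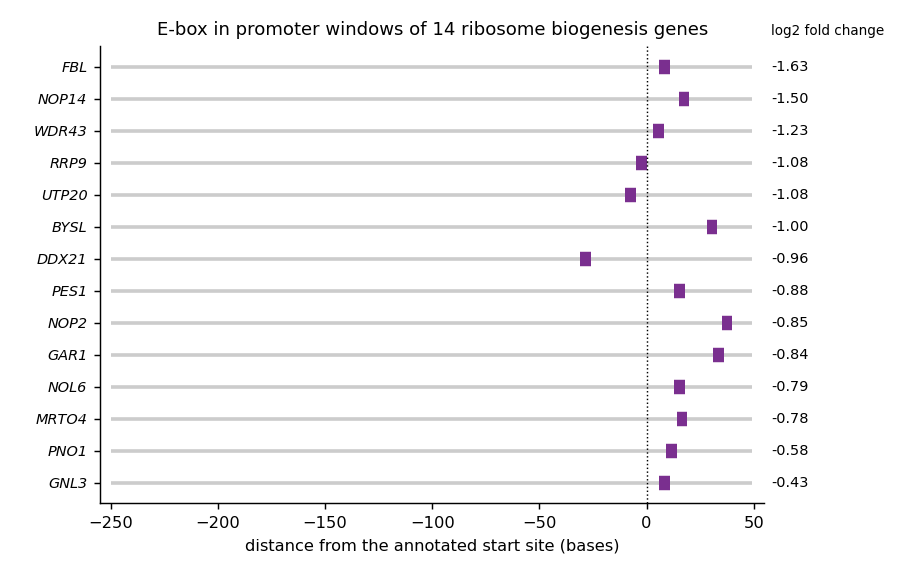
Position of the E-box CACGTG (purple blocks) in the promoter window (grey bars, 250 bases before to 50 bases after the annotated start) of the 14 genes that hold it, in order of log2 fold change, which is printed at the right. The x axis gives the distance from the start in bases. All 14 blocks sit near the start, from 31 bases before to 35 bases after it.

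Ribosome biogenesis genes were lower, as a group, on the arrays labelled siGATA2. The list was chosen with earlier results of these data known, so its share is a description and not a test. Of the 36 genes, 31 were lower and 0 were higher at a limma adjusted p under 0.05, and 13 of them fell by 2-fold or more. For comparison, 14.2% of all 28850 genes tested were lower, 12.3% were higher and 7.13% fell by 2-fold or more. Among the 17854 tested genes with a symbol, as all 36 have, 19% were lower and 15.1% were higher. Of these 17854 genes, 1722 fell by 2-fold or more, and their median log2 fold change was 0.04. The median log2 fold change of the 36 genes was -0.88, with a range of -1.93 to 0.15 and 35 of 36 below 0, against a median of 0.09 over all genes tested. For 31 genes every siGATA2 value lay under every siControl value, a pattern that 16.4% of all genes showed. With 4 arrays a group, the exact permutation test of a single gene cannot give a p below 0.0286. In bulk RNA, fewer cells of a type and less RNA per cell cannot be told apart.

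Scaling bears on the counts. With each array scaled to its E1A spike-in controls in place of quantile normalisation, 19 of the 36 genes were lower. In that fit 6.59% of all genes tested were lower, against 14.2% as reported. The median over the 36 genes was -1.56 and the median over all genes was -0.43. This scaling shifts all genes of an array by the same amount. The spike-in signal was 11.13 on siControl array 1, 13.62 to 13.69 on siControl arrays 2 to 4 and 13.45 to 13.83 on the siGATA2 arrays. The scaling therefore raised siControl array 1 against the other arrays, and with it the siControl mean. The arrays did not fill the 2 rows of the slide evenly. A fit with the row as a block called 27 of the 36 genes lower, without TSR1, PES1, MRTO4 and DDX21. Of all genes tested, 10.4% were lower in the fit with the row as a block. Within the first row (siGATA2 arrays 1, 2 and 3 with siControl array 4) the median over the 36 genes was -0.96, and within the second row (siGATA2 array 4 with siControl arrays 1, 2 and 3) it was -0.76, with 0 of 36 genes called in either row. Each of these fits had 1 array in one group, which was assumed to vary like the others, so that the counts say little about the genes.

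**Figure D2:**
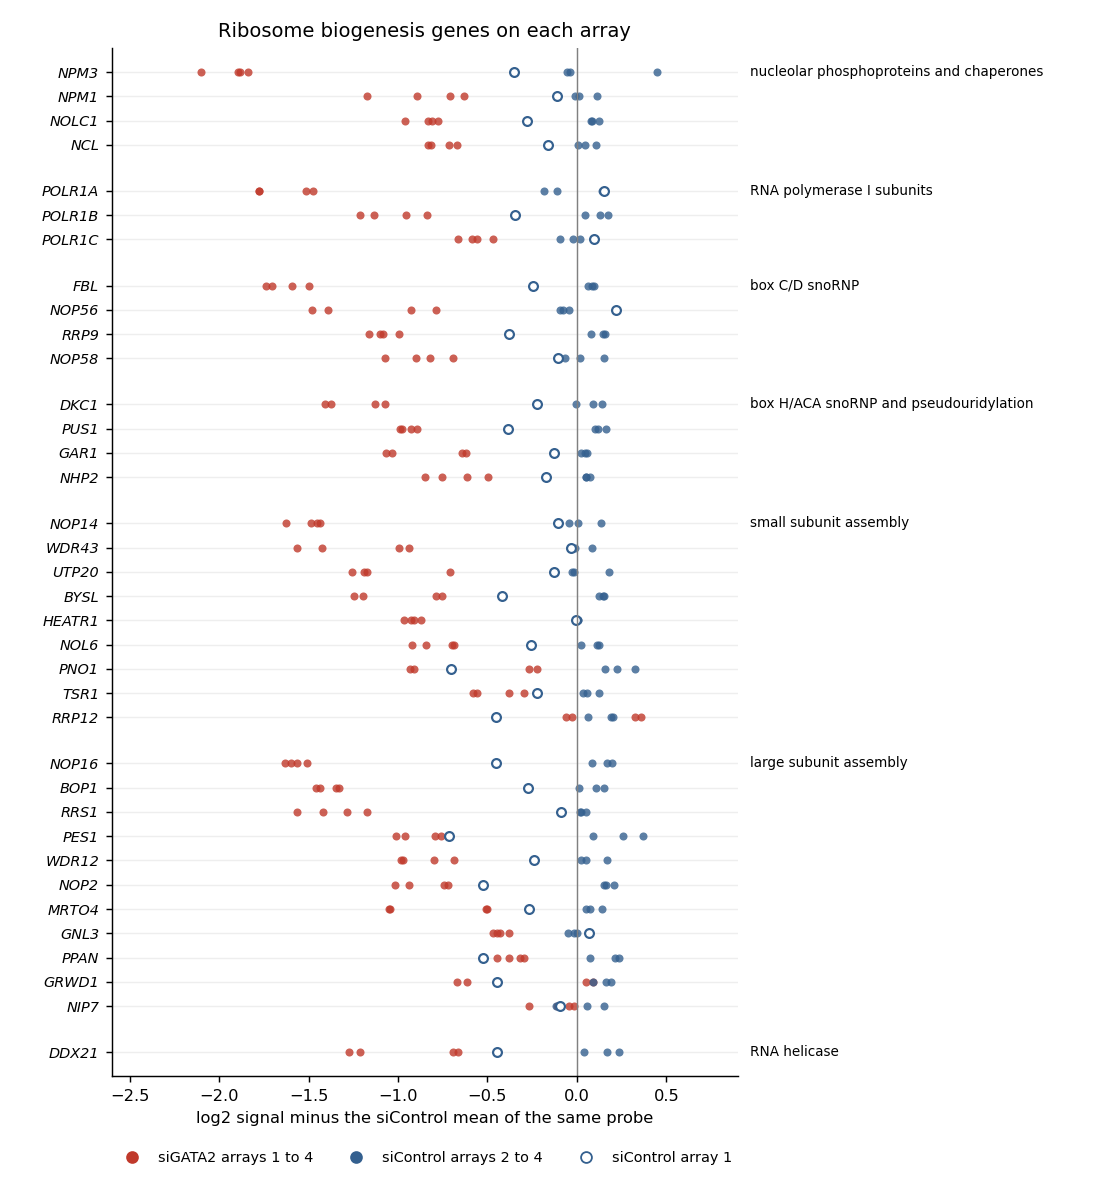
Log2 signal of each of the 36 genes on each array, minus the mean of the 4 siControl arrays for the same probe, grouped by the role of the protein. Red points are the 4 siGATA2 arrays, filled blue points siControl arrays 2 to 4, and open circles siControl array 1. The 2 colours do not overlap for 31 genes, and PNO1, RRP12, PPAN, GRWD1 and NIP7 are the genes in which they do.

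The nucleolar phosphoproteins and chaperones all fell. NPM3, a histone chaperone of the nucleoplasmin family, had the largest change of the 36 genes. Its signal was 12.31, 12.33, 12.11 and 12.37 on the arrays labelled siGATA2 and 13.86, 14.17, 14.66 and 14.16 on the arrays labelled siControl. The groups were clearly apart, and the mean went from 14.21 ± 0.33 to 12.28 ± 0.116 (SD, n = 4), a 3.81-fold lower signal (log2 fold change -1.93, SE 0.174, limma adjusted p = 0.000154). NPM1, nucleophosmin, an abundant nucleolar chaperone, gave 17.12, 16.84, 17.38 and 17.30 on the arrays labelled siGATA2 and 17.90, 18.12, 18.02 and 18.00 on the arrays labelled siControl. Its 4 siGATA2 values were all under the siControl range, array 2 being the lowest (log2 fold change -0.85, SE 0.14, limma adjusted p = 0.00295). Nucleolin, encoded by NCL, binds ribosomal RNA precursors and is a major protein of the nucleolus. It read 15.55, 15.53, 15.65 and 15.70 on the arrays labelled siGATA2 and 16.21, 16.47, 16.37 and 16.41 on the arrays labelled siControl. All arrays labelled siGATA2 fell below all siControl arrays, by 1.69-fold on average (log2 fold change -0.76, SE 0.102, limma adjusted p = 0.00111). NOLC1, a phosphoprotein that escorts snoRNPs, was 1.80-fold lower with an adjusted p of 0.00153 in limma.

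The transcription machinery of the ribosomal RNA genes was lower as well. POLR1A, the largest subunit of RNA polymerase I, gave 9.72, 9.68, 9.41 and 9.42 on the arrays labelled siGATA2 and 11.35, 11.01, 11.33 and 11.08 on the arrays labelled siControl. The groups were separated by a wide margin, and the mean went from 11.19 ± 0.172 to 9.56 ± 0.165 (SD, n = 4), or 3.11-fold lower (log2 fold change -1.64, SE 0.133, limma adjusted p = 9.64e-05). POLR1B, the second-largest subunit, read 10.32, 10.24, 10.50 and 10.62 on the arrays labelled siGATA2 and 11.10, 11.62, 11.50 and 11.58 on the arrays labelled siControl. Its values were lower on all siGATA2 arrays, and siControl array 1 was the lowest of the controls (log2 fold change -1.04, SE 0.152, limma adjusted p = 0.00171). POLR1C, a subunit shared between RNA polymerases I and III, was 1.48-fold lower on the brighter of its 2 probes (adjusted p = 0.0034, limma). Its other probe had a log2 fold change of -0.46 and did not pass the test over probes (limma adjusted p = 0.133).

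Box C/D snoRNP proteins fell by 1.83-fold to 3.10-fold. Fibrillarin, FBL, is the methyltransferase of these particles. Its signal was 15.81, 15.71, 15.57 and 15.60 on the arrays labelled siGATA2 and 17.06, 17.39, 17.40 and 17.37 on the arrays labelled siControl. All 4 siGATA2 arrays were near each other and far under the controls, the mean going from 17.30 ± 0.165 to 15.67 ± 0.11 (SD, n = 4), or 3.10-fold lower (log2 fold change -1.63, SE 0.12, limma adjusted p = 6.17e-05). NOP56, a scaffold protein of the particle, had 14.63, 14.49, 13.94 and 14.03 on the arrays labelled siGATA2 and 15.63, 15.37, 15.33 and 15.32 on the arrays labelled siControl. Here siControl array 1 was the highest control, and siGATA2 arrays 3 and 4 were lower than arrays 1 and 2 (log2 fold change -1.15, SE 0.182, limma adjusted p = 0.0025). The other 2 NOP56 probes had log2 fold changes of -1.29 and -0.86. RRP9, which binds the U3 snoRNA, was 2.12-fold lower and NOP58, the partner of NOP56, 1.83-fold lower.

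Among the box H/ACA proteins and pseudouridine synthases, DKC1 had the largest change. It encodes dyskerin, the catalytic subunit of the particle, and read 12.97, 12.94, 13.22 and 13.27 on the arrays labelled siGATA2 and 14.12, 14.49, 14.34 and 14.43 on the arrays labelled siControl. The groups lay apart, at a 2.37-fold lower mean from 14.35 ± 0.16 to 13.10 ± 0.171 (SD, n = 4) (log2 fold change -1.25, SE 0.131, limma adjusted p = 0.000316). PUS1, a stand-alone pseudouridine synthase that modifies transfer RNAs, gave 10.66, 10.69, 10.60 and 10.61 on the arrays labelled siGATA2 and 11.21, 11.69, 11.75 and 11.70 on the arrays labelled siControl. The 4 siGATA2 arrays were within a narrow range below the controls, of which array 1 was the lowest (log2 fold change -0.95, SE 0.141, limma adjusted p = 0.00179). GAR1 and NHP2, the small core proteins of the box H/ACA particle, were 1.79-fold and 1.6-fold lower (adjusted p = 0.00313 and 0.00395, limma).

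**Figure D3:**
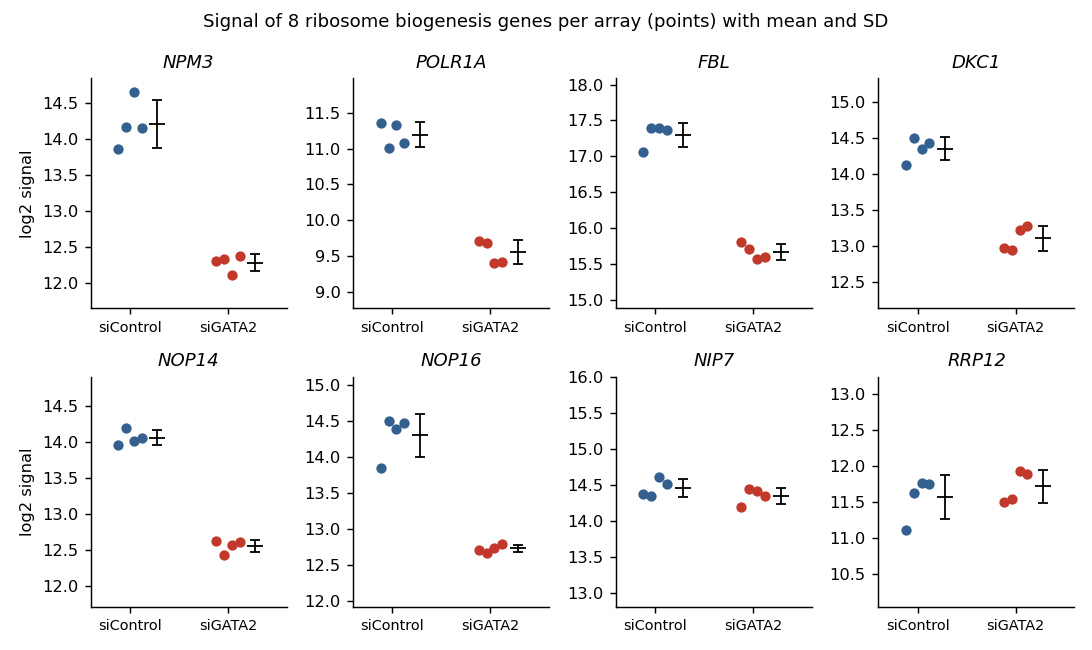
Log2 signal of 8 genes on the 4 siControl (blue) and 4 siGATA2 (red) arrays, drawn left to right in the order of array 1 to 4, with the group mean and SD as a bar at the right of each group. The y axes differ in position but span the same range. The 6 genes other than NIP7 and RRP12 have siGATA2 points below every siControl point, and NIP7 and RRP12 have overlapping groups.

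Small subunit assembly factors were lower for 7 of 9 genes. NOP14, a component of the early small subunit precursor, read 12.62, 12.43, 12.57 and 12.60 on the arrays labelled siGATA2 and 13.95, 14.19, 14.01 and 14.06 on the arrays labelled siControl. The arrays of each group were close to each other, and the mean went from 14.06 ± 0.102 to 12.55 ± 0.086 (SD, n = 4), or 2.83-fold lower (log2 fold change -1.50, SE 0.101, limma adjusted p = 4.28e-05). Its second probe had a log2 fold change of -1.04. WDR43, a subunit of the UtpA complex that links transcription and processing of the precursor, gave 10.24, 10.38, 10.81 and 10.86 on the arrays labelled siGATA2 and 11.77, 11.79, 11.88 and 11.76 on the arrays labelled siControl. Arrays 1 and 2 labelled siGATA2 were lower than arrays 3 and 4, and all were below the controls (log2 fold change -1.23, SE 0.161, limma adjusted p = 0.000937). HEATR1, which acts in the same complex, read 11.53, 11.47, 11.49 and 11.44 on the arrays labelled siGATA2 and 12.39, 12.41, 12.41 and 12.40 on the arrays labelled siControl. Its controls were nearly identical, siControl array 1 included (log2 fold change -0.92, SE 0.0845, limma adjusted p = 0.000167). UTP20, a large scaffold protein of the small subunit precursor, was 2.12-fold lower, BYSL, bystin, 1.99-fold, NOL6 1.73-fold and TSR1 1.37-fold. NOL6 was measured by 2 probes that disagreed, the brighter at -0.79 and the other at 0.20 with an adjusted p of 0.788 in limma over probes. TSR1 passed narrowly (limma adjusted p = 0.0275) and lost its call in 5 of the 8 fits that each left out 1 array and with the slide row as a block (limma adjusted p = 0.0834).

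Neither PNO1 nor RRP12 passed the test in this role. PNO1, a factor of late small subunit maturation, had 9.08, 9.10, 9.78 and 9.74 on the arrays labelled siGATA2 and 9.30, 10.33, 10.17 and 10.23 on the arrays labelled siControl. The groups overlapped because siControl array 1 was near the siGATA2 arrays (log2 fold change -0.58, 95% interval -1.23 to 0.07, limma adjusted p = 0.172, exact two-sided permutation p = 0.114). Without that array PNO1 was called lower. RRP12, an export factor of the small subunit, read 11.51, 11.54, 11.93 and 11.89 on the arrays labelled siGATA2 and 11.11, 11.63, 11.77 and 11.76 on the arrays labelled siControl. It was the one gene of the 36 with a fold change above 0, and its groups overlapped (log2 fold change 0.15, 95% interval -0.28 to 0.58, limma adjusted p = 0.593, exact two-sided permutation p = 0.486). Without siControl array 1 its log2 fold change was 0.00.

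Large subunit assembly factors were lower for 8 of 11 genes. NOP16, a nucleolar protein of large subunit assembly, showed the largest change of the 11, with 12.70, 12.67, 12.74 and 12.79 on the arrays labelled siGATA2 and 13.85, 14.50, 14.39 and 14.47 on the arrays labelled siControl. All siGATA2 values sat together below the controls, and the mean went from 14.30 ± 0.304 to 12.73 ± 0.0512 (SD, n = 4), or 2.98-fold lower (log2 fold change -1.57, SE 0.158, limma adjusted p = 0.000248). BOP1, a member of the PES1-BOP1-WDR12 complex that acts in large subunit ribosomal RNA processing, read 11.72, 11.71, 11.62 and 11.60 on the arrays labelled siGATA2 and 12.78, 13.06, 13.16 and 13.21 on the arrays labelled siControl. Again the groups did not overlap (log2 fold change -1.39, SE 0.121, limma adjusted p = 0.000128). The other proteins of that complex, PES1 and WDR12, were 1.84-fold and 1.82-fold lower. PES1 passed narrowly (limma adjusted p = 0.0272). Its siControl values were 10.81, 11.62, 11.89 and 11.78, the first of them close to its highest siGATA2 value of 10.77, and its call was lost in 7 of the 8 fits that left out 1 array, all except the one without siControl array 1. RRS1, which helps bring a small ribosomal RNA into the large subunit precursor, read 12.25, 12.10, 12.38 and 12.49 on the arrays labelled siGATA2 and 13.58, 13.71, 13.68 and 13.69 on the arrays labelled siControl. The groups were well apart, with a 2.57-fold lower mean (log2 fold change -1.36, SE 0.114, limma adjusted p = 0.000108). NOP2, a methyltransferase of large subunit ribosomal RNA, was 1.81-fold lower, MRTO4, a factor of late large subunit assembly, 1.71-fold and GNL3, nucleostemin, 1.35-fold. With the slide row as a block, the limma adjusted p was 0.069 for MRTO4 and 0.0719 for PES1.

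PPAN, GRWD1 and NIP7 were not called. PPAN, the homologue of the yeast large subunit factor Ssf1, gave 10.31, 10.18, 10.25 and 10.33 on the arrays labelled siGATA2 and 10.11, 10.70, 10.86 and 10.84 on the arrays labelled siControl. siControl array 1 lay below all siGATA2 arrays and the other controls lay above them (log2 fold change -0.36, 95% interval -0.77 to 0.05, limma adjusted p = 0.184, exact two-sided permutation p = 0.143). Without that array PPAN was called lower. GRWD1, a chaperone of a large subunit ribosomal protein and of histones, read 11.45, 11.51, 12.18 and 12.22 on the arrays labelled siGATA2 and 11.68, 12.21, 12.29 and 12.32 on the arrays labelled siControl. Its siGATA2 arrays split into a lower and a higher pair, and the groups overlapped (log2 fold change -0.29, 95% interval -0.84 to 0.27, limma adjusted p = 0.417, exact two-sided permutation p = 0.2). NIP7, a factor of large subunit assembly and ribosomal RNA processing, read 14.19, 14.44, 14.42 and 14.35 on the arrays labelled siGATA2 and 14.37, 14.35, 14.61 and 14.52 on the arrays labelled siControl. The values of both groups ran through each other (log2 fold change -0.11, 95% interval -0.37 to 0.15, limma adjusted p = 0.502, exact two-sided permutation p = 0.257). DDX21, a nucleolar RNA helicase grouped by itself here, had 13.29, 13.23, 13.84 and 13.81 on the arrays labelled siGATA2 and 14.06, 14.74, 14.55 and 14.67 on the arrays labelled siControl. The groups were apart, with siControl array 1 the lowest control and siGATA2 arrays 1 and 2 under arrays 3 and 4 (log2 fold change -0.96, SE 0.213, limma adjusted p = 0.0123). With the slide row as a block, the limma adjusted p of DDX21 was 0.0549.

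The arrays within a group were not alike over the 36 genes. The median deviation from the siControl mean was -0.95, -1.01, -0.79 and -0.80 on siGATA2 arrays 1 to 4 and -0.24, 0.08, 0.09 and 0.07 on siControl arrays 1 to 4. siControl array 1 was thus lower for these genes than the other controls, by a median of 0.33 on the log2 scale (siControl 1 minus the mean of siControl 2 to 4, -0.33), but 31 genes still had every siGATA2 value below it. Without siControl array 1, the median was -0.99 and 33 genes were lower, 18 of them by 2-fold or more. In that fit 15.4% of all genes tested were lower. With siControl arrays 2 and 4 only, the median over the 36 genes was -1, and 32 were lower, against 12.9% of all genes tested. siGATA2 arrays 1 and 2 were both below arrays 3 and 4 for 21 of the 36 genes (58.3%), against 46.0% of all genes tested. They were both above for 7 (19.4% against 33.3%). The siGATA2 arrays thus parted into 2 pairs in many genes. The main fit treated the 4 arrays of a group as independent replicates, which was not tested. If the arrays of a pair are not independent, the SEs and p-values given here can be too small.

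The rest of the pathway was examined in a wider list, whose difference from the 36 genes was not tested. Of 146 other ribosome biogenesis genes tested, 74 were lower (50.7%), 4 were higher (2.74%) and 68 were not called, with a median log2 fold change of -0.54 and 34 genes lower by at least 2-fold. In the remaining RNA polymerase I machinery, 8 of 13 genes were lower, led by TCOF1, the treacle gene of the nucleolus, at -2.15 (limma adjusted p = 0.00029) and POLR1F at -1.33 (limma adjusted p = 0.00361), and UBTF, an activator of ribosomal RNA gene transcription, was higher at 0.45 (limma adjusted p = 0.0315). Of 10 other snoRNP genes 3 were lower, with SHQ1, an assembly factor of box H/ACA particles, at -1.18 and ZNHIT3, an assembly factor of box C/D particles, at -0.85. Other small subunit factors were lower for 22 of 45 genes, TSR3 (-1.55) and RRP7A (-1.43) having the largest falls. Other large subunit factors were lower for 33 of 54 genes, with LYAR at -2.16 and RPF1 at -1.92. SBDS (0.85, limma adjusted p = 0.0214), EIF6 (0.81, limma adjusted p = 0.0161) and FTSJ3 (0.35, limma adjusted p = 0.0288) were higher. SBDS and EIF6 each have a part in late large subunit maturation. FTSJ3 was named after its value was seen. Of 24 exosome and RNase MRP genes, 8 were lower, MPHOSPH6 (-1.34) and POP1 (-1.23) most. In the order given, the shares lower in these roles were 61.5%, 30%, 48.9%, 61.1% and 33.3%. Over all genes tested the share was 14.2%, and over genes with a symbol 19%.

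Related gene groups, which host snoRNAs or encode ribosomal proteins, gave other sizes of change. Of 10 host genes of snoRNAs that were tested, 9 were lower (90%) with a median of -1.20. Among 77 cytosolic ribosomal protein genes, 28 were lower (36.4%) and 0 were higher, with a median of -0.32 and 1 lower by at least 2-fold. Mitochondrial ribosomal protein genes, also 77, were lower for 23 (29.9%) and higher for 5 (6.49%), with a median of -0.20. Of all genes tested, 14.2% were lower and 12.3% higher, and of genes with a symbol 19% and 15.1%. Differences between these lists were not tested.

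**Figure D4:**
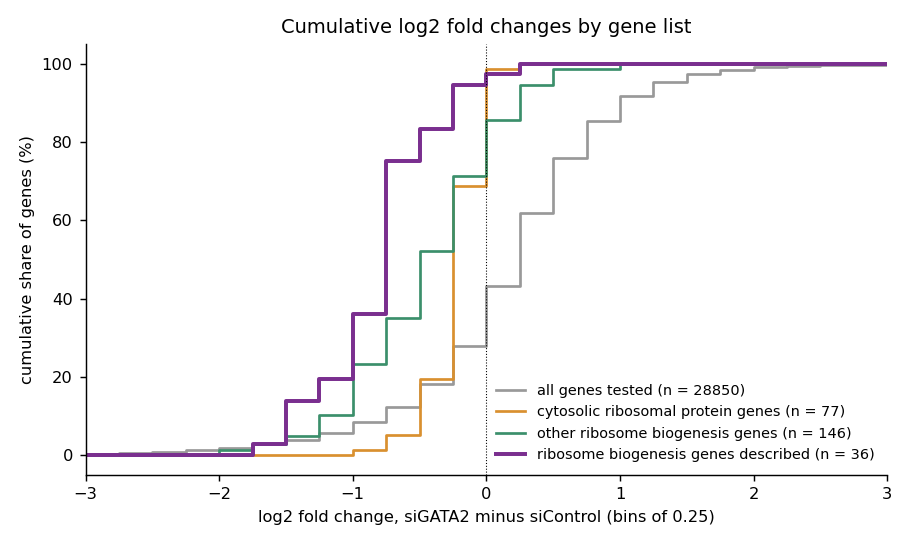
Cumulative share of genes (y axis, percent) at or below each log2 fold change (x axis, siGATA2 minus siControl, in bins) for the 36 ribosome biogenesis genes, 146 other ribosome biogenesis genes, 77 cytosolic ribosomal protein genes and all 28850 genes tested. At the medians, -0.88 and 0.09, the line of the 36 genes lies to the left of that of all genes. In the far left of the plot the order is reversed. The lowest log2 fold change was -1.93 among the 36 genes and -5.35 among all genes tested.

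The genes with an E-box were set beside those without. Of the 14 genes that hold CACGTG, 13 were lower with a median of -0.92, and of the 16 with an entry but without it, 13 were lower with a median of -0.86. Among the other ribosome biogenesis genes, 22 of 33 with the letters were lower (median -0.71) and 40 of 92 without them (median -0.42). Over all tested genes with an entry, 27.0% of those with an E-box were lower (median -0.05) and 18.8% of those without (median 0.04). The ordering was not tested, nor was the part of MYC in it.

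**Figure D5:**
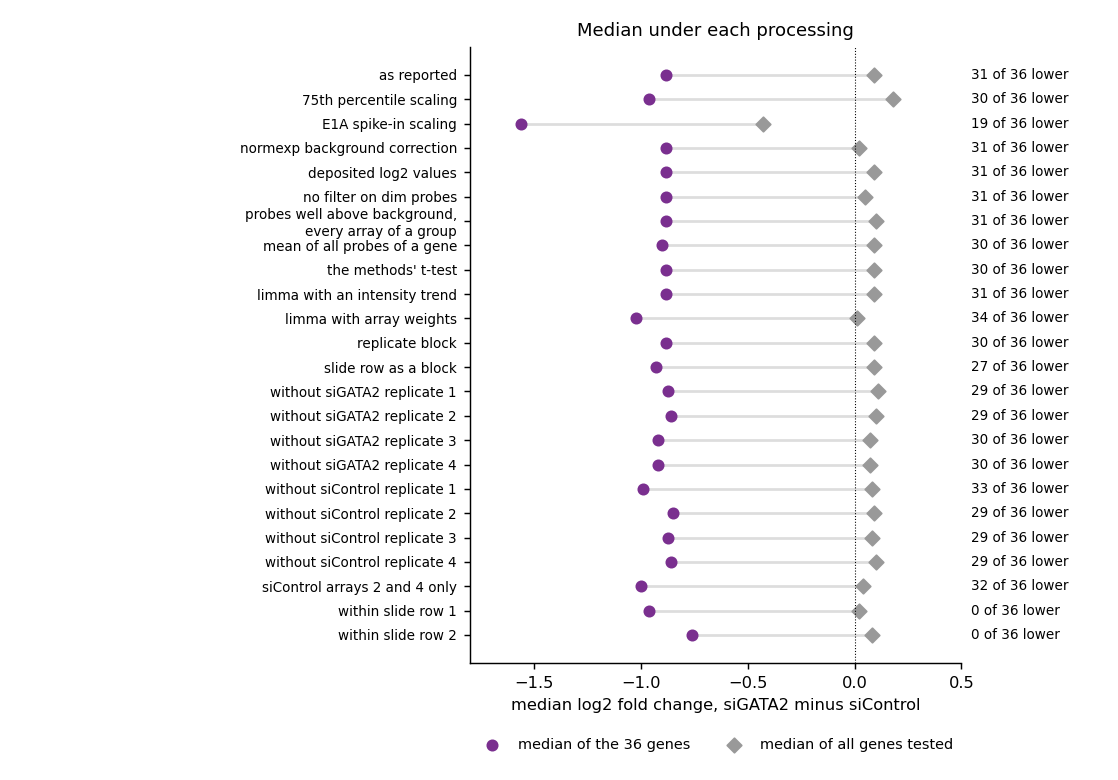
Median log2 fold change of the 36 genes (purple circles) and of all genes tested (grey diamonds) as reported and under each of 23 alternatives, with the number of the 36 genes called lower at the right. The circles lie between -1.56 and -0.76, each to the left of its diamond, and the count runs from 0 within a single slide row to 34 with array weights.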

How the data were processed

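RNA of 8 LNCaP cultures (4 siGATA2, 4 siControl, 72 hours) was hybridised to one-colour Agilent arrays on 1 slide. The authors scanned them and extracted the intensity values, per the file headers and the submitters' processing notes with version 11.0.1.1 of the Agilent extraction software, and the deposited log2 values of the same arrays were used as an alternative (correlation of at least 0.985 with the processed signal). The headers and the methods of the study name different array designs. Outlier spots were left out, log2 processed signals were averaged per probe, and arrays were quantile normalised, the normalisation that the methods name. Of 42405 non-control probes, 26360 matched a current symbol through their RefSeq accession, 1914 without annotation were dropped, and 35514 with a mean log2 signal of at least 3 were kept, the brightest per gene, giving 28850 genes. limma 3.58.1 (R 4.3.3; lmFit and eBayes) was used in place of the methods' t-test, with Benjamini-Hochberg adjustment over all genes and calls at an adjusted p under 0.05. The 36 genes and the other lists were chosen with earlier results of these data known. Genes given with full values were the 2 with the largest change in each role, every gene not called, and NCL, NPM1, FBL and POLR1A; of the other pathway genes, the 2 with the largest fall and the 2 with the largest rise among called genes of each role. HEATR1 and RRS1 were added after their values were seen. The scripts were tested on simulated data. No spot was saturated, all 43 probes of the 36 genes were well above background on 8 of 8 arrays, and the number of arrays limits the precision. Promoter windows and coordinates are from RefSeq (GRCh38.p14), and were not converted to the build of the array. The groups followed the sample labels, which number the samples of each group as replicates. Alternatives changed the scaling, background, filter, probe choice, test, block and arrays. Some of the cell type markers examined are not reported here.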

Additional observations from a re-analysis of the deposited data

Results flagged for a closer look

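Of 76 groups of 4 arrays examined, 12 had 1 array far from the other 3, and 11 of the 12 were on siControl array 1. Chance gives about 1 in 20 for a single group, but the groups share the same 8 arrays and are not independent. The count therefore cannot be judged against that rate. That array was lower than the rest for FBL (17.06 against 17.37 to 17.40), NOLC1 (14.08 against 14.44 to 14.48), RRP9 (12.73 against 13.19 to 13.26), NHP2 (16.29 against 16.51 to 16.53), PUS1 (11.21 against 11.69 to 11.75), PNO1 (9.30 against 10.17 to 10.33), BYSL (12.51 against 13.05 to 13.08), NOP2 (11.60 against 12.28 to 12.33) and GRWD1 (11.68 against 12.21 to 12.32). It was higher than the rest for NOP56 (15.63 against 15.32 to 15.37). The median deviation over the 36 genes was -0.24 on it against 0.07 to 0.09 on the other siControl arrays. UTP20 on siGATA2 array 3 was 9.97, above 9.42 to 9.50 on the other siGATA2 arrays. The part of the low spike-in signal of siControl array 1 in these values was not tested.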

How the results depend on the processing

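With E1A spike-in scaling, 1899 genes were lower and 141 higher (4086 and 3558 as reported, 93.1% of calls lower against 53.5%). Then 19 of the 36 genes and 36 other ribosome biogenesis genes were lower, and 0 of the latter were higher. The median of the 36 was -1.56 and RRP12 was -0.49. This scaling raised siControl array 1, whose spike-in signal was low, against the other arrays. With array weights, 7537 genes were lower and 8042 higher, 34 of the 36 genes were lower, 21 by at least 2-fold, with a median of -1.02 and RRP12 at -0.10. The other ribosome biogenesis genes called higher were 2 with 75th percentile scaling, 1 with the slide row as a block and 0 with siControl arrays 2 and 4 only, against 4 as reported, and genes called higher were 2184 with the row as a block. Samples that shared a replicate number did not deviate together in every pair (correlations of 0.54, -0.31, 0.17 and 0.22). With a replicate block 30 of the 36 genes were lower, against 12.9% of all genes tested, and 2 of the other list were higher. Within slide row 1, an alternative chosen after seeing the data, 256 genes were lower and 52 higher, 0 of the 36 were called lower (0 by 2-fold), 1 of the other list was lower and 0 higher, the median was -0.96 and RRP12 was -0.10. Within slide row 2, also added, 0 genes were lower, 0 higher, and 0 of the 36 or of the other list were called, with a median of -0.76 and GRWD1 at 0.16. Within each row 1 group held a lone array that was assumed to vary like the others, so that the counts there say little about the genes. Leaving out 1 array at a time gave 3228 to 4455 genes lower, 2586 to 4002 higher, 29 to 33 of the 36 lower, 12 to 18 by at least 2-fold, 0 higher, a median of -0.99 to -0.85, 60 to 87 of the other list lower and 1 to 4 higher. Without siControl array 1, RRP12 was 0.00. The counts of the 36 lower under normexp, deposited values, no filter, the well-above-background filter and an intensity trend were 31 each. In these fits 12.3% to 15.4% of all genes tested were lower. A slide block was not run because there was 1 slide. At an unadjusted p under 0.05, 0 of the 36 were higher in limma and in the methods' t-test.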
